A study of Mus musculus with 3 samples.

Results

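The genes described here are 10 genes of the Yap and Tead arm of the Hippo pathway in cultured mouse muscle progenitors, out of 35562 genes measured. They were taken by name: the coactivators Yap1 and Wwtr1 (which encodes TAZ), the DNA-binding partners Tead1, Tead2, Tead3 and Tead4, the vestigial-like cofactors Vgll2 and Vgll3, and the target genes Ccn1 (older symbol Cyr61) and Ccn2 (older symbol Ctgf). The RNA came from 3 myoblast lines of the genotype Dmdmdx; Pax7-nGFP, known by the numbers 66, 67 and 72, which form 1 group. All 3 share the mdx mutation of the dystrophin gene, its correction by CRISPR/Cas9 through skipping of the mutated exon, and a nuclear GFP reporter driven by Pax7. They were grown from satellite cells sorted by flow cytometry from postnatal mouse chimeras, whose blastocyst hosts carried Pax7-CreERT2 and Rosa26-lsl-DTA. Editing of the donor iPSCs was checked by sequencing in 1 clone. The tamoxifen treatment, the age and the chimera behind each line are not given in the labels, so the spread between lines may be that between animals or that between cultures. Myoblasts of Pax7-nGFP mice and mouse embryonic fibroblasts were not analysed here, and no value below compares edited with other cells.

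The Hippo pathway is a kinase cascade that reads cell density, stretch and the state of the actin cytoskeleton. When it is on, the kinases LATS1 and LATS2 phosphorylate YAP and TAZ, which then stay in the cytoplasm, and when it is off both enter the nucleus, where they bind TEAD factors and raise transcription of growth genes. Most of this control acts on protein, so the RNA levels below do not measure how active YAP or TAZ was. In satellite cells YAP is known to favour proliferation over differentiation, while TEADs also bind muscle promoters at the MCAT element, whose core is the same sequence that TEADs read at YAP targets, and VGLL proteins bind TEADs at a surface that overlaps with the one used by YAP.

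Promoter sequence from RefSeq (GRCm38.p6) was matched by symbol for 7 of the 10 genes, and no window was listed for Ccn2, Tead1 or Tead4. The windows ran from 250 bases before to 50 bases after the annotated start, and the motif searched was GGAATG, the letters that TEADs read, on both strands (CATTCC on the other strand). It stood in a window of 5 of the 7 genes, against 16.6% of the 27025 genes in the table, and a match describes letters and not a bound site. Ccn1 is shown first because it is the classic YAP target among the 10 genes, with the 250 bases before its start and the match in capitals.

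Ccn1 (chr3:145649986-145650235, minus strand): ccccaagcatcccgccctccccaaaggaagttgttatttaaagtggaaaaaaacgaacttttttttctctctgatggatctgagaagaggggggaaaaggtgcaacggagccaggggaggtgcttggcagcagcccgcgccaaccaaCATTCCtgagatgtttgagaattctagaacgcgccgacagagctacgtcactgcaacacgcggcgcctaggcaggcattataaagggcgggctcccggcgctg
The match began 103 bases before the start of Ccn1. The 4 other genes with a match are shown with 12 bases on either side of it, since they encode the regulators themselves.
Yap1 (chr9:8004720-8004749, minus strand): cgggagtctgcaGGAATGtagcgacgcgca
Wwtr1 (chr3:57576029-57576058, minus strand): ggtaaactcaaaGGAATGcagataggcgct
Tead3 (chr17:28350697-28350735, minus strand): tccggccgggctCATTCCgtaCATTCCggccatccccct
Vgll3 (chr16:65815114-65815143, plus strand): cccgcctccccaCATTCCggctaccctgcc

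Yap1 and Wwtr1 both held GGAATG, 141 bases before the start of Yap1 and 136 or 170 bases before the 2 listed starts of Wwtr1. In Tead3, 1 of the 3 windows held a pair of CATTCC copies separated by 3 bases. Another Tead3 window held GGAATG 182 bases before its start. The window with the pair also held GGAATG just after its start, and neither of these further matches is printed. The windows of Tead2 and Vgll2 did not hold these letters. With the shorter search GGAAT, 6 of the 7 genes had a match, but so did 42.2% of all genes in the table.

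In all 3 lines each of the 10 genes was found at 1 TPM or more, a level that 47.1% of the 25510 genes above 0 TPM in at least 1 line reached in every line. TPM, a count per length scaled to a common total, corrects for transcript length and depth, so levels of different genes can be set side by side on it. Of the 10 genes, 8 had at least 10 TPM in every line, against 31.5% of the same background, and the exceptions were Tead3 and Ccn2. Ccn1 was the highest in every line, followed in every line by Tead2 and then Yap1, and Ccn2 was the lowest in every line.

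**Figure D1:**
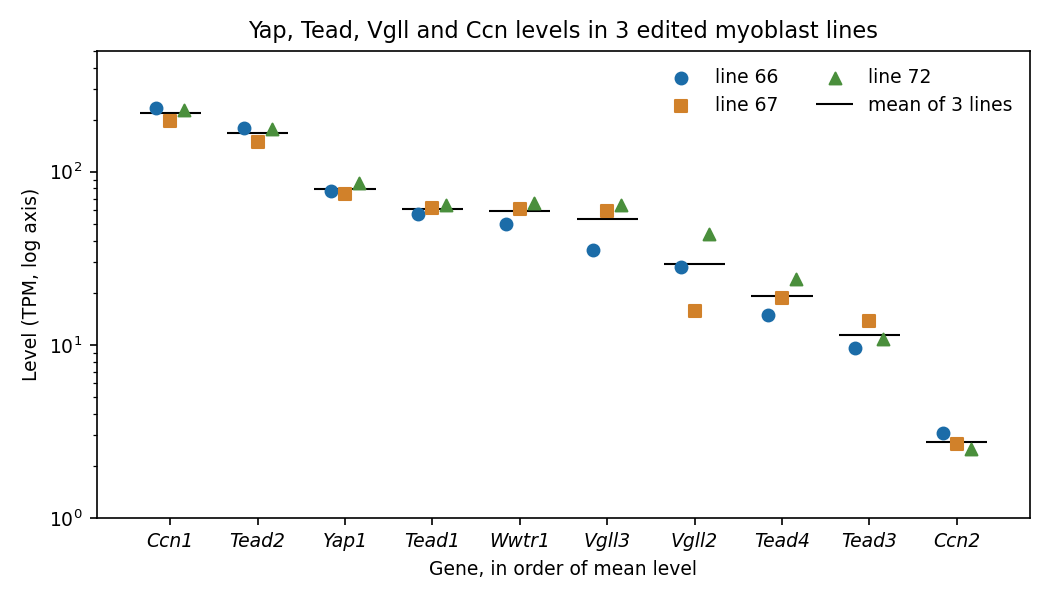
Level of each of the 10 genes in TPM (log axis) in lines 66, 67 and 72, with a bar at the mean of the 3 lines. Ccn1 lies near 219 TPM and Ccn2 near 2.75 TPM, and the points of Vgll2 and Vgll3 are the most spread.

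YAP and TAZ are related coactivators that have no DNA-binding domain of their own. Yap1 (chromosome 9, 7931999 to 8004596, minus strand, GRCm38) was at 77.5, 74.7 and 85.7 TPM in lines 66, 67 and 72, or 79.3 ± 5.72 TPM (SD, n = 3). Wwtr1 (chromosome 3, 57455649 to 57575910, minus strand) was at 49.9, 60.8 and 66.4 TPM, or 59.0 ± 8.38 TPM (SD, n = 3). Yap1 was the higher of the pair in each line, and its 3 values did not overlap those of Wwtr1. The mean difference was 0.43 ± 0.17 on the log2(TPM + 1) scale (SD, n = 3), with p = 0.25 in a two-sided exact sign-flip test and an adjusted p of 0.25 over the 6 pairs of genes compared, which is the smallest p that 3 lines allow. That order depended on how transcripts were counted. With annotated fragments (transcripts of incomplete ends) left out, a choice made after the data were seen, Yap1 was at 54.4 ± 4.15 TPM (SD, n = 3) and the difference turned to -0.11. In CPM, which scales counts to a common total without correction for length, the difference was 0.06 (p = 1.0 in the exact sign-flip test, n = 3), as Wwtr1 had more estimated counts than Yap1 in line 67 (11218 against 10557) and in line 72 (12605 against 12468).

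The main fragment, Yap1-210, has an annotated length of 1193 bases and carried 31.4 ± 2.33% of the Yap1 TPM (SD, n = 3) but 9.84 ± 0.96% of its estimated counts. The transcript with the largest share was Yap1-202, at 65.3 ± 2.23% of the TPM (SD, n = 3). It differs from Yap1-201 and Yap1-210 by the lack of a coding exon of 48 bases (16 codons), which lies in the region of the leucine zipper of the protein. This exon is printed because it is a coding difference between these Yap1 forms, with the exon in capitals and 15 bases of the neighbouring coding exons in lower case. Yap1-210 also differs in length, at 1193 bases against 4115 for Yap1-202. Coordinates are those of GENCODE M21 (GRCm38).

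Yap1 (exon at chr9:7950492-7950539, minus strand): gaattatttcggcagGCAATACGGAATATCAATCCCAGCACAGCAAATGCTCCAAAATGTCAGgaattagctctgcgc

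Transcripts with this exon held 31.9%, 35.7% and 35.4% of the Yap1 TPM in lines 66, 67 and 72, or 34.3 ± 2.13% (SD, n = 3). Of the estimated counts they held 13.8 ± 0.92% (SD, n = 3), since a short transcript gains weight when counts are divided by length. By either measure the form without the exon was the larger part of Yap1 RNA in every line. Wwtr1 had 1 transcript above a share of 10%, Wwtr1-201, with 98.6 ± 1.001% of the TPM (SD, n = 3).

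TEADs are the factors through which YAP, TAZ and VGLL proteins reach DNA, and all 4 were found. Tead2 (chromosome 7, 45215753 to 45233644, plus strand), best known from the early embryo and neural progenitors, was at 179, 148 and 176 TPM in lines 66, 67 and 72. Tead1 (chromosome 7, 112679318 to 112906807, plus strand), a broadly expressed member that binds muscle MCAT elements, was at 56.8, 61.6 and 64.4 TPM. Tead4 (chromosome 6, 128224288 to 128300823, minus strand), which is known as a direct target of myogenic factors in differentiating muscle cells, was at 14.8, 18.6 and 24.0 TPM. Tead3 (chromosome 17, 28331671 to 28350817, minus strand), known from placenta, was at 9.61, 13.6 and 10.7 TPM. The order Tead2, Tead1, Tead4, Tead3 was the same in all 3 lines, and no value of 1 of these genes overlapped those of the next.

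Tead2 made up 64.7 ± 3.86% of the summed TPM of the 4 genes (SD, n = 3), Tead1 23.6 ± 1.82%, Tead4 7.37 ± 1.56% and Tead3 4.41 ± 1.06%. The log2(TPM + 1) difference was 1.44 ± 0.19 between Tead2 and Tead1 and 1.64 ± 0.24 between Tead1 and Tead4. Between Tead4 and Tead3 it was 0.70 ± 0.35 (SD, n = 3 each). Each difference had the same sign in 3 of 3 lines and an adjusted p of 0.25 in the exact sign-flip test. These Tead pairs were set by the order of mean level in the same lines, so agreement in sign along it is partly built in. A Tead2 fragment of 435 bases, Tead2-206, took 26.9 ± 2.27% of the TPM (SD, n = 3) and 3.81 ± 0.46% of the estimated counts. Without fragments of this kind Tead2 was at 122 ± 10.5 TPM (SD, n = 3) and still held 57.5 ± 3.44% of the TEAD sum. In CPM Tead1 stood above Tead2 at 296 ± 21.5 against 193 ± 12.6 (SD, n = 3), and its mean above that of Ccn1 at 280 ± 22.6 (SD, n = 3), although Ccn1 was the higher in line 66. The main Tead1 transcript is 9480 bases long, that of Tead2 2140 bases and that of Ccn1 2019 bases. The summed TEAD level was 2.05, 1.79 and 1.81 times that of Yap1 and Wwtr1 together in lines 66, 67 and 72.

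Tead1 and Tead4 each had listed forms that differ by whole coding exons whose lengths are multiples of 3 bases, so the reading frame is kept. Tead1-202, with 67.7 ± 0.82% of the Tead1 TPM (SD, n = 3), lacks exons of 63 and 12 bases that Tead1-206 and Tead1-201 have. Tead4-203, with 51.3 ± 2.76% of the Tead4 TPM (SD, n = 3), lacks an exon of 129 bases (43 codons) that Tead4-201 has. The exons are shown in capitals with 15 bases of the neighbouring exons on either side, because they are the coding difference between these forms. The forms also differ outside them, as Tead1-206 is 1495 bases long against 9480 for Tead1-202. Tead4-203 is 1718 bases long against 3076 for Tead4-201. The shares are those of whole transcripts and do not isolate use of the exons.

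Tead1, 63-base exon (exon at chr7:112841888-112841950, plus strand): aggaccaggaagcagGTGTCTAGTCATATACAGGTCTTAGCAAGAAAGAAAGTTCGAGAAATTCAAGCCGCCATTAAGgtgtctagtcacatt
Tead1, 12-base exon (exon at chr7:112856053-112856064, plus strand): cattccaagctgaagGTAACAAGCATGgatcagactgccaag
Tead4, 129-base exon (exon at chr6:128247960-128248088, minus strand): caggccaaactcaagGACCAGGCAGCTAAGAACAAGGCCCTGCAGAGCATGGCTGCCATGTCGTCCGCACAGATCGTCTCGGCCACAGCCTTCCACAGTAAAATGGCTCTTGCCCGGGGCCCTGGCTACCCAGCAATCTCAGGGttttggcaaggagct

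Transcripts with the Tead1 exons held 23.2%, 24.4% and 26.8% of the TPM in lines 66, 67 and 72, but 4.45%, 9.31% and 8.69% of the estimated counts. The Tead4 form without its exon held 51.6%, 53.9% and 48.4% of the TPM and 32.4 ± 2.32% of the estimated counts (SD, n = 3). The form with the exon was thus the larger by estimated counts in every line, while by TPM it was the larger in line 72 (50.2%) and the smaller in lines 66 and 67. Counting transcripts with a mean share of at least 10% of the TPM, Tead3 was split over 3 forms and each other TEAD over 2, with 46.1 ± 12.8% of its TPM in Tead3-206 and 15.7 ± 1.14% in the retained-intron transcript Tead3-202 (SD, n = 3). Summed over protein-coding transcripts alone, Tead3 was at 7.61 ± 0.77 TPM (SD, n = 3).

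**Figure D2:**
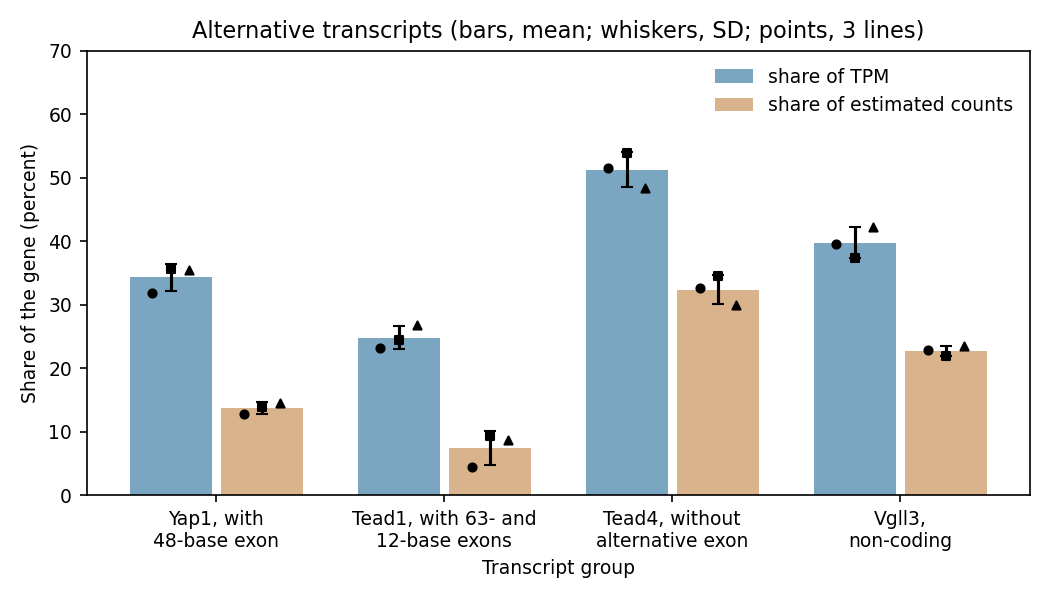
Share of a gene's RNA (percent) carried by 4 groups of transcripts, by TPM and by estimated counts, as mean bars with SD whiskers and a point for each of the 3 lines. Every group has a smaller share by estimated counts than by TPM, from 34.3% to 13.8% for the Yap1 forms with the 48-base exon.

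VGLL2 and VGLL3 carry the short vestigial-like motif that binds TEADs. Vgll2 is known from embryonic somites and skeletal muscle. Vgll3 (chromosome 16, 65815257 to 65866368, plus strand) was at 35.4, 59.6 and 64.3 TPM in lines 66, 67 and 72, or 53.1 ± 15.5 TPM (SD, n = 3). Vgll2 (chromosome 10, 52022502 to 52028471, plus strand) was at 28.0, 15.6 and 43.9 TPM, or 29.2 ± 14.2 TPM (SD, n = 3). Line 66 had the lowest Vgll3 and line 67 the lowest Vgll2, while line 72 had the most of both. Vgll3 exceeded Vgll2 in 3 of 3 lines, by 0.91 ± 0.83 on the log2(TPM + 1) scale (SD, n = 3; adjusted p = 0.25 in the exact sign-flip test), although the lowest Vgll3 value lay below the highest Vgll2 value. Line 67 carried much of this size, as the difference was 0.43 without it. That order depended on a transcript without a reading frame. Of the Vgll3 TPM, 39.8 ± 2.43% belonged to Vgll3-203, which is annotated as non-coding. Over protein-coding transcripts Vgll3 was at 21.4, 37.3 and 37.1 TPM, below Vgll2 in lines 66 and 72, and the difference from Vgll2 was 0.20 (p = 1.0 in the exact sign-flip test, n = 3). Vgll2 was listed with 1 transcript.

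Of the other VGLL genes, Vgll4, which restrains YAP at TEADs, was at 20.2, 20.4 and 27.3 TPM, and Vgll1 was at 0 counts in every line, which allows up to 3 counts per library. The p160 coactivators that also bind TEADs lay between 8.45 TPM (Ncoa3) and 21.3 TPM (Ncoa1). Fam181b was at 0.32 ± 0.09 TPM (SD, n = 3) and Fam181a at 0 counts.

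Ccn1 and Ccn2 encode secreted matrix proteins that bind integrins, and both are standard readouts of YAP and TAZ with TEAD. Ccn1 (chromosome 3, 145646976 to 145649981, minus strand) was at 233, 197 and 226 TPM in lines 66, 67 and 72, or 219 ± 18.9 TPM (SD, n = 3), above 97.3% of the genes above 0 TPM. Ccn2 (chromosome 10, 24595442 to 24598683, plus strand) was at 3.10, 2.66 and 2.49 TPM, or 2.75 ± 0.31 TPM (SD, n = 3), above 57.0% of those genes. The 2 targets thus lay far apart, with Ccn1 at 75.1, 74.1 and 90.9 times the TPM of Ccn2, and the log2(TPM + 1) difference was 5.87 ± 0.14 (SD, n = 3; adjusted p = 0.25 in the exact sign-flip test, same sign in 3 of 3 lines). Ccn2 rested on 339, 266 and 252 estimated counts, so that its counting error of up to 6.30% was not small beside its coefficient of variation of 11.4% between lines. For Ccn1 the counting error was up to 0.76% and the coefficient of variation 8.63%. Of the 31-base words of Ccn2, 80.3% occurred in no other listed gene, against at least 96.9% for each of the other 9 genes, so some Ccn2 reads may have been shared with another gene.

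The other members of the CCN family fell into a pair that was present and a pair that was near 0. Ccn4, a Wnt target, was at 37.5, 46.8 and 41.0 TPM. Ccn3, known to restrain myogenic differentiation, was at 125, 15.4 and 3.82 TPM in lines 66, 67 and 72, so the highest line was 32.7 times the lowest. Ccn5 was at 0.28 ± 0.10 TPM (SD, n = 3) and Ccn6 at no more than 1 count in any line. Among integrins that serve as CCN receptors, Itgb1 (369 TPM), Itga6 (238 TPM) and Itgav (57.9 TPM) were at least 10 TPM in every line, Itgb5 was at 8.40, 9.31 and 16.0 TPM, and Itgb3 was at 0.23 TPM.

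The list of 22 YAP targets, a set from general knowledge that includes Ccn1 and Ccn2, had 20 genes at 1 TPM or more in every line, against 47.1% of all genes above 0 TPM, and a median of 24.0 TPM, against a median of 0.86 TPM over all genes above 0. Ankrd1, a muscle ankyrin repeat protein, was the highest at 1375, 1133 and 1182 TPM, followed by the receptor tyrosine kinase gene Axl at 488, 382 and 367 TPM, by Ccn1, and by Myof, a membrane repair and fusion gene, at 159, 173 and 211 TPM. The lowest were Fjx1 (0.47 TPM), Nt5e (0.57 TPM), F3 (1.76 TPM) and Foxf2 (2.65 TPM), with Ccn2 just above them. Ccn1 and Ccn2 therefore stood near opposite ends of the list.

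Among targets averaging 10 TPM or more, Igfbp3 alone (1 of 13) was over 2-fold apart between lines, at 107, 61.9 and 141 TPM, where 2.47% of all genes compared were. Genes of its chromosome 11 had a median log2 shift of 0.32 in line 66, whose part in this value was not tested. Below 10 TPM, Crim1 was at 14.1, 8.58 and 5.29 TPM, highest in line 66 and lowest in line 72, while F3 and Foxf2 were also over 2-fold apart. These 3 fall under the minimum level of that background share, which does not cover them.

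**Figure D3:**
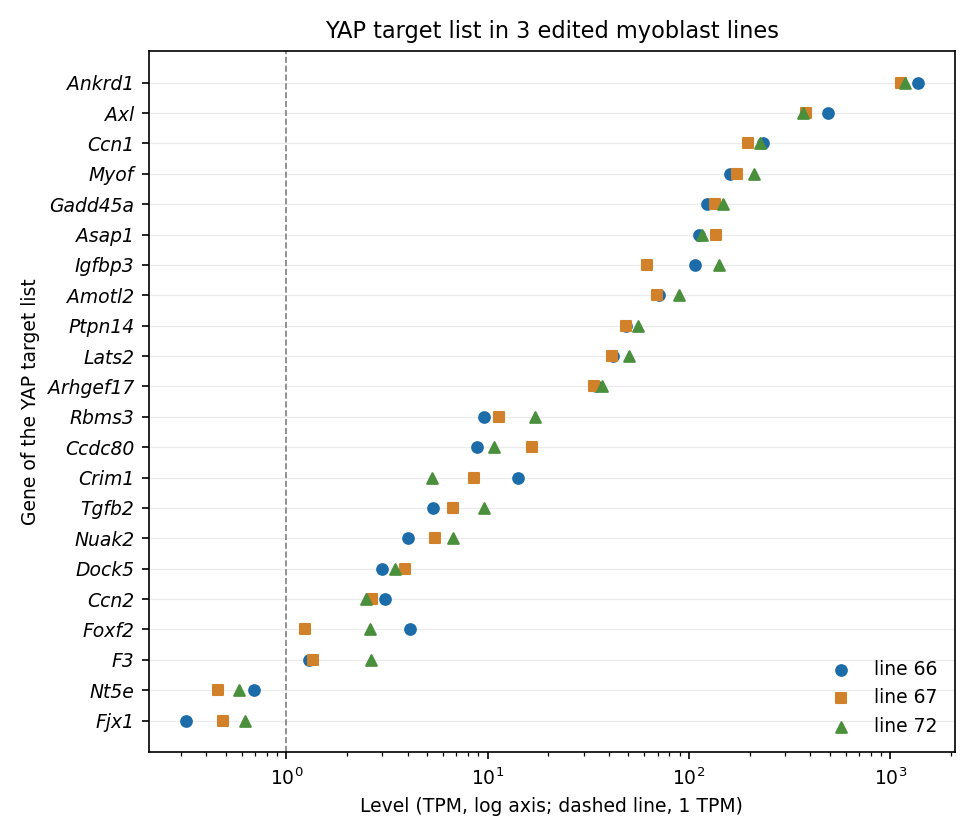
Level in TPM (log axis) of the 22 genes of the YAP target list in lines 66, 67 and 72, with a dashed line at 1 TPM. Ankrd1 stands highest at 1133 to 1375 TPM, Ccn1 follows Axl, and Ccn2 at 2.49 to 3.10 TPM is among the lowest.

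The windows before the starts of several of these targets held the TEAD letters as well, and those of 3 are shown beside Ccn1 to compare the flanks. Ankrd1 had 2 matches, and Amotl2, which encodes a YAP-binding scaffold, and Axl had 1 each. Tnnt2, a cardiac and embryonic troponin gene in whose promoter an MCAT element is well known, is shown with them.

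Ankrd1 (chr19:36119950-36120066, minus strand): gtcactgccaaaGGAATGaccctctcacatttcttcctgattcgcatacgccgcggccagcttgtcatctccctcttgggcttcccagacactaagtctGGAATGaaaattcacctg
Amotl2 (chr9:102717727-102717756, plus strand): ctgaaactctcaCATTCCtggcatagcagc
Axl (chr7:25788949-25788978, minus strand): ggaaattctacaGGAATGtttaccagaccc
Tnnt2 (chr1:135836295-135836324, plus strand): tctcctgctgcaCATTCCtccctccgcggg

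Of the 15 targets with a window, 7 held GGAATG on either strand, Ccn1 included, against 16.6% of all genes in the table. A list of known YAP targets may favour such a match. The 7 include Lats2, whose only match lay after the start in 1 of its 2 windows. All 5 muscle genes chosen for their MCAT elements (Acta1, Acta2, Tnnt2, Myh6 and Myh7) had it, as a choice by MCAT element favours. Of these 5 muscle genes, Acta1 (350, 486 and 588 TPM), Acta2 (209, 292 and 581 TPM) and Tnnt2 (237, 308 and 333 TPM) were high in every line and Myh7 was at 7.06, 15.5 and 19.9 TPM, each lowest in line 66 and highest in line 72, an order that 29.4% of all genes compared had. Myh6 was at 0.24 TPM. Gadd45a (135 TPM), Igfbp3 and Myof had no match in these windows.

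All 20 Hippo kinases and scaffolds were at 1 TPM or more in every line, 19 of them at 10 TPM or more, against the 47.1% and 31.5% of all genes above 0 TPM. None was over 2-fold apart between lines, where 2.47% of all genes compared were, so this count is near that share. Map4k4, a kinase upstream of LATS, was the highest at 272 ± 30.2 TPM (SD, n = 3), followed by the tumour suppressor gene Nf2 (78.5 TPM), the angiomotin family gene Amotl2 (76.5 TPM) and the adaptor gene Sav1 (67.5 TPM). The lowest were Taok3 (9.66 TPM), Wwc1 (14.0 TPM), Wwc2 (15.6 TPM) and Stk4 (21.3 TPM). Of the paired kinases, Lats2 (44.7 ± 5.01 TPM) was above Lats1 (28.8 ± 6.04 TPM) and Stk3 (33.8 ± 2.75 TPM) above Stk4 (21.3 ± 1.47 TPM; SD, n = 3 each). Lats2 exceeded Lats1 in all 3 lines, at 42.2, 41.5 and 50.5 against 35.6, 26.5 and 24.2 TPM. Lats2, Amotl2 and Ptpn14 are also on the target list, because YAP is known to raise its own inhibitors.

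The immediate early genes, which respond to serum as Ccn1 does, had 10 of 11 members at 1 TPM or more in every line, again against 47.1%. Fosl1 (101 TPM), Jun (101 TPM), Egr1 (79.2 TPM) and Srf (48.3 TPM) were the highest. Fosb (0.76 TPM), Egr2 (2.32 TPM), Atf3 (5.77 TPM) and Fos (5.92 TPM) were the lowest.

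**Figure D4:**
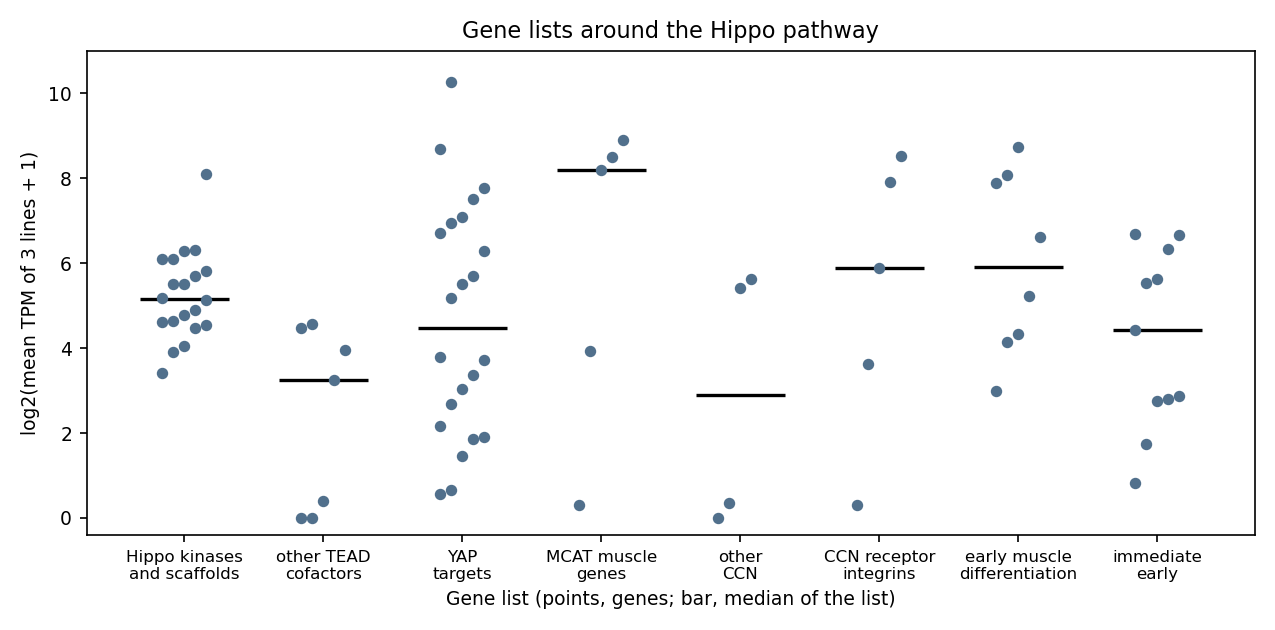
Mean level over the 3 lines, as log2(mean TPM + 1), of each gene in the 8 lists around the Hippo pathway, with a bar at the median of each list. The 20 Hippo kinases and scaffolds lie between 9.66 and 272 TPM with no gene near 0, while the YAP targets run from near 0 to above 10 on this log2 scale.

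Between lines, Vgll2 alone of the 9 genes averaging 10 TPM or more was more than 2-fold higher in its highest line than in its lowest, at 2.81-fold, as were 2.47% of the 8428 genes compared. Each line is 1 library, so these ratios have no replicate and were not tested. Without line 67 the Vgll2 ratio was 1.57 and without line 72 it was 1.79. Above 1.5-fold were 3 genes, Vgll2, Vgll3 (1.82-fold) and Tead4 (1.62-fold), against 9.79% of all genes compared. Without line 66, Vgll3 was at 1.08-fold and Tead4 at 1.29-fold, which left Vgll2 alone, and without line 72 Tead4 was at 1.26-fold. At the other end Tead1 (1.13-fold), Yap1 (1.15-fold) and Ccn1 (1.18-fold) lay at or below the median ratio of 1.18. The coefficient of variation of Vgll2, 48.6%, was above that of 98.8% of the genes compared.

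Some chromosomes were shifted as a whole in single lines. Genes of chromosome 10, which holds Vgll2 and Ccn2, had a median log2 shift of 0.28 in line 66, -0.09 in line 67 and -0.18 in line 72 relative to the other lines. Ccn2 itself was shifted by 0.20, -0.05 and -0.15, close to its chromosome in each line, and after the chromosome median was taken off its ratio between lines was 1.06. Vgll2 moved the other way in line 72, by 1.03, and stayed at 2.84-fold after the same step, where 2.16% of genes were over 2-fold. Tead4 lies on chromosome 6, with a median shift of 0.15 in line 72, and was at 1.37-fold after it. The part of these chromosome shifts in the values was not tested further.

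**Figure D5:**
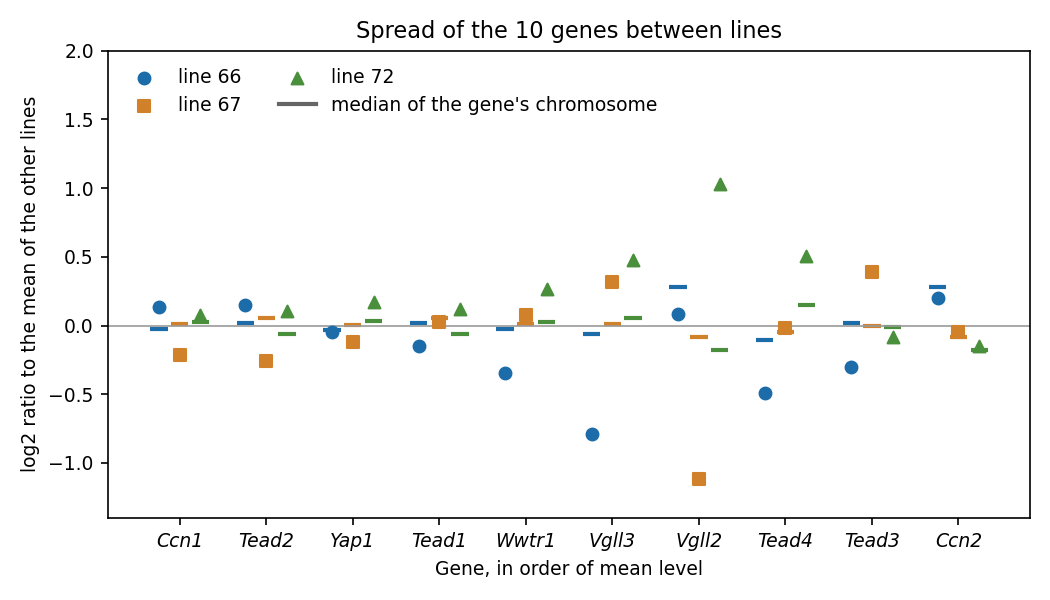
For each of the 10 genes, the log2(TPM + 1) difference of lines 66, 67 and 72 from the mean of the other lines (points), with the median of all genes on the same chromosome in that line (short bars). Vgll2 runs from -1.12 in line 67 to 1.03 in line 72, and the Ccn2 points lie near their chromosome bars.

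Wwtr1, Tead1, Tead4 and Vgll3 were lowest in line 66, between in line 67 and highest in line 72, an order that 29.4% of the genes compared showed and that was picked out after the values were seen. Genes of early muscle differentiation had the same order in 8 of 8 cases, although Ttn was at 17.9 TPM in both line 67 and line 72. Ckm, at a mean of 6.90 TPM, falls under the minimum level of the 29.4% share, which covers the other 7. Among the 8 were Myog at 168, 222 and 310 TPM, Mymk at 67.6, 106 and 119 TPM and Actc1 at 281, 409 and 575 TPM. Their summed level was 771, 1082 and 1447 TPM. The summed level of 10 fibroblast markers was 244, 317 and 444 TPM, most of it from Col3a1 and Prrx1, but only 2 of the 10 markers (Col3a1 and Col1a2) had this order one by one, and Prrx1 did not. Among those markers Lum and Dpt were at 0 counts, Dcn was at no more than 4 counts and Pdgfra was at 0.41 TPM. The part of either list in the 4 genes was not tested.

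All 7 myoblast markers were at 10 TPM or more in every line, against 31.5% of all genes above 0 TPM. They ran from Myf5 (109 TPM) to Myod1 (690 TPM), with a sum between 2337 and 2492 TPM. The differentiation genes and some fibroblast markers given above, such as Myog and Col3a1, were present too, and the purity of the cultures was not tested. All 5 endothelial markers were below 1 TPM in every line, as were 4 of 5 immune markers, and the other, Cd68, was at 3.90, 2.92 and 4.23 TPM. Of 5 smooth muscle and pericyte markers, Rgs5 was at 356, 137 and 172 TPM and the other 4 were below 1 TPM in every line except Cspg4 (0.81, 5.24 and 1.33 TPM). In bulk RNA, fewer cells that express a gene cannot be told apart from less RNA of it per cell. The libraries held between 66972426 and 73274315 estimated counts, and between 12403 and 12548 genes had at least 1 TPM.

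Placed side by side, the 10 genes ran in mean level from Ccn1 through Tead2, Yap1, Tead1, Wwtr1, Vgll3, Vgll2, Tead4 and Tead3 to Ccn2. Of the 9 pairs of neighbours in this order, 7 kept their sign in every line. The 2 that did not were Tead1 with Wwtr1 (0.05 ± 0.12, SD, n = 3, on the log2(TPM + 1) scale) and Vgll2 with Tead4 (0.50 ± 0.64, SD, n = 3). Wwtr1 and Vgll3 kept their sign but differed by less than their spread (0.19 ± 0.26, SD, n = 3). Coding sequence was compared within the families to place these levels beside likeness. Tead1 and Tead4 shared 71.9% of aligned coding bases, Tead3 and Tead4 71.8% and Tead1 and Tead2 67.4%, against 60.9% for Yap1 and Wwtr1, 58.0% for Ccn1 and Ccn2 and 50.9% for Vgll2 and Vgll3.

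The genes whose values over the 3 lines were most like those of a member were named by distance on the line-centred log2(TPM + 1) scale, as a description over 3 points. For Vgll2 they were Gzme (16.8, 9.61 and 26.4 TPM; distance 0.05), Pcolce2 (50.8, 31.1 and 72.99 TPM; distance 0.16) and Tspan9 (116, 77.3 and 178 TPM; distance 0.19), and Gzme was the 1 gene of 8427 within 0.1. For Ccn1 they were Gnptg, Socs2 and Gm47547, and for Ccn2 Maf1, Sirt4 and Nf1, but 647 and 632 genes lay within 0.1 of these members.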

How the data were processed

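RNA-seq libraries of 3 edited myoblast lines (1 group, n = 3) were used. The kit was stranded and selected poly-A RNA. The authors deposited an estimated count for each of 121798 transcripts, with no normalization, and a TPM value, which is the estimated count over the effective length, scaled to 1000000 per library. The submitters' processing notes name bcl2fastq 2.20, fastp 0.20, kallisto 0.46.1 and GRCm39, and the annotation and strand setting are not given in the sources used here. Reads shared between transcripts are split by kallisto, so values per transcript are estimates, and short fragments weigh more in TPM than in counts.

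Transcripts were matched by identifier to GENCODE M21 (GRCm38), which gave symbols and coordinates, with none converted between builds. The 1112 unmatched transcripts (0.493% to 0.535% of estimated counts) were left out. Values were summed into 35562 genes. Levels were compared as log2(TPM + 1). Pairs of genes were tested with a two-sided exact sign-flip permutation test over the 3 lines, with Benjamini-Hochberg adjustment over 6 pairs. The p-values cover these lines only. Where a difference had the same sign in every line, the exact sign-flip permutation test gave its smallest p-value, whatever the spread. Such a p-value reflects agreement in sign and does not measure the spread between lines. Ratios between lines were taken over 8428 genes averaging 10 TPM or more. Line 66 had 73274315 estimated counts in all, line 67 had 66972426 and line 72 had 70272367. Where a gene had 0 counts, up to 3 are possible, for counting error only. Coding sequences came from GENCODE M21 and promoter windows from RefSeq. No protein sequences were used.

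The genes, lists and tests were chosen with earlier results of these data known. Named were the 10 genes, genes of the lists with their values (of lists over 10 genes the 4 highest, the 4 lowest and those over 2-fold apart), and for Ccn1, Ccn2 and the gene with the largest range the 3 genes of most similar profile. The alternatives were a pseudocount of 0.1, CPM, edgeR TMM and DESeq2 size factors on the estimated counts (rounded for DESeq2), protein-coding transcripts alone, other filters and a 1.5-fold threshold, the motif GGAAT, and leaving out each line. Transcripts with incomplete ends and the chromosome median were left out in alternatives added after the data were seen. The code for ratios and the sign-flip test was tested on simulated data. Scaling used edgeR 4.0.16 and DESeq2 1.42.0 in R 4.3.3, and all else was run in Python 3.11.15 with pandas 2.3.3 and numpy 2.4.6.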

Additional observations from a re-analysis of the deposited data

How the results depend on the processing

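No pairing between groups of samples was possible because the 3 lines form 1 group. Of 148 values of single genes, pairs and transcript groups under the alternatives, 4 pair differences changed sign. Another 36 were levels or shares that moved by more than 1 SD between lines. Of these, 9 levels each moved under CPM, TMM scaling and DESeq2 size factors, where the unit itself changed from TPM. All 4 transcript shares moved when taken from estimated counts. The other 108 were levels that moved by less than 1 SD, or pair differences whose mean kept its sign. Some of these pair differences changed in size by more than 1 SD. The 108 include 16 values without line 66, 16 without line 67 and 16 without line 72, which were bound to come out so. Leaving out 1 of 3 lines cannot move a mean by 1 SD or turn a sign that all lines share. The sign changes were Tead2 minus Tead1, at -0.61 (log2) under CPM, TMM scaling and DESeq2 size factors, which do not correct for length, and Yap1 minus Wwtr1, at -0.11 without transcripts of incomplete ends. Of the 6 pairs, 6 had the same sign in all lines in TPM, and 5 had under CPM, TMM scaling, DESeq2 size factors, protein-coding transcripts alone and complete transcripts alone, with Tead2 minus Tead1 counted at its turned sign under the first 3 of these. The count of genes over 2-fold apart was 1 under the other scalings and filters and after the chromosome median was removed, 3 at a threshold of 1.5-fold, and between 0 and 1 with 1 line left out. Members of the 10 at 10 or more in every line, in TPM or in the scaled counts, numbered 8 to 9 under the alternatives run, and 50 of the 79 list genes reached 10 TPM in every line where 69 reached 1 TPM. The share of Vgll3 in its non-coding transcript was 22.8% of estimated counts. Depth limits Ccn2 the most among the 10 genes, and 3 lines cannot give a sign-flip p below 0.25.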

Other observations

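In line 66, Ccn3 was at 15046 estimated counts, against 1683 in line 67 and 430 in line 72. Its range between lines was wider than that of any of the 10 genes, while its neighbours in the family, Ccn1 and Ccn4, stayed within 1.25-fold. Rgs5 (356, 137 and 172 TPM) was likewise highest in line 66. Col1a2 was at 7.47, 28.3 and 37.0 TPM in lines 66, 67 and 72, with Col1a1 at 0.31, 0.10 and 0.19 TPM, so the 2 chains of type I collagen were far apart in every line. These genes were picked out after their values were seen, and no difference between lines was tested.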
